A study of Homo sapiens with 16 samples.

Results

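The regions described here are the 500 kb bins of chromosomes 16, 17, 19, 20 and 22, and the contacts measured are those between bins on different chromosomes of these 5. The region chr22:16-26 Mb was left out of every contact count. Of 693 bins on the 5 chromosomes, 576 were valid, out of 5550 valid bins on chromosomes 1 to 22 and X. A bin was valid when at least 60% of its 20 kb sub-bins were present in every library. The 576 bins form 129380 pairs of bins on different chromosomes. They were set against 1178474 pairs among the 1737 valid bins of chromosomes 2, 3, 4, 5 and 18, called the gene-poor set here. Positions are on build hg19, and no gene names were attached to bins, because no hg19 annotation was used here. The names of the sets held against gene counts. With RefSeq genes of build GRCh38 counted per chromosome, the 5 chromosomes ranked 1 (chromosome 19), 2 (17), 3 (22), 4 (16) and 7 (20) of 23 in protein-coding genes per valid bin (for chromosome 22, over the whole chromosome with chr22:16-26 Mb), and the gene-poor set ranked 17 to 22. The 5 are also small: they ranked 1, 3, 4, 5 and 7 from the fewest valid bins, with chromosomes 21 and 18 between them. Size and gene density cannot be told apart for these 5 chromosomes alone.

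All libraries came from K562, an established human leukaemia line that is known to carry many rearranged chromosomes. In-nucleus Hi-C was used, in which chromatin fixed with 2% formaldehyde is cut, neighbouring ends are joined inside the nucleus, and joined pairs are counted as contacts. HindIII, an enzyme that cuts at a fixed sequence, was left on the chromatin for 0.25, 1, 3 or 12 h, with 2 libraries a time, and time was varied so that the shortest digestions would capture the most accessible sites. No other treatment distinguished the groups, and the labels name no untreated or undigested control. Nothing in the labels says that replicates came from separate cultures, so p-values measure only the spread between these libraries, which may be technical.

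Each chromosome occupies a territory of its own in the interphase nucleus, and contacts between chromosomes (trans contacts) form mostly where territories meet. In many human cell types gene-dense chromosomes such as 19, 17 and 22 lie towards the nuclear interior, and gene-poor ones such as 18 and 4 lie towards the periphery. Chromosome 22 also carries a nucleolar organiser on its short arm, as do chromosomes 13, 14, 15 and 21, and these arms gather at nucleoli. Within a chromosome, active and inactive stretches separate into 2 compartments, and stretches of like kind also meet across chromosomes.

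The second sequencing run gave 62777251 to 176412222 contacts per library, of which 5907580 to 19969042 were trans contacts between valid bins. The trans share rose with digestion, from 9.38% and 9.54% at 0.25 h, through 9.91% and 10.1% at 1 h and 10.2% ± 0.28 (SD, n = 2) at 3 h, to 11.5% and 11.7% at 12 h. The 12 h libraries were also the deepest. The gene-rich bins made up 10.4% of valid bins and held 9.12% to 10.1% of the ends of trans contacts. Replicates correlated at r = 0.998 to 0.9995 over the log2 values of 253 chromosome pairs. Libraries of different times correlated at r = 0.993 to 0.999. Over single bins, replicates correlated at r = 0.956 to 0.987 and libraries of different times at r = 0.952 to 0.9825. At bin level, replicates were thus hardly more alike than libraries of different times. These correlations are descriptions.

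Contacts among the gene-rich chromosomes exceeded the product of the bins' trans totals in every library. The measure is observed over expected contacts (O/E), where the expected number for a pair of bins is the product of their trans totals, scaled so that all trans pairs together equal the observed contacts. A value of 1 is the average of all trans pairs, so a rise in one set must be met by a fall elsewhere. Pairs in excess also raise the totals of their own bins, so O/E understates an excess. After 0.25 h of digestion the gene-rich O/E was 1.47 in replicate 1 and 1.45 in replicate 2. Both 1 h libraries stood at 1.48. The 3 h libraries gave 1.49 and 1.50, and both 12 h libraries gave 1.56. The gene-poor O/E stayed between 1.034 and 1.037 in the 8 libraries. Contacts between the 2 sets were below the average, at 0.858 and 0.864 after 0.25 h and at 0.840 and 0.837 after 12 h. In every library the summed gene-rich value was the highest of the 3 and that between the sets the lowest. Single chromosome pairs did overlap: pooled O/E was 0.841 to 1.18 for gene-poor pairs and 0.657 to 1.17 for pairs between the sets. Gene-rich pairs, at 1.34 to 2.41, lay above both. The gene-rich O/E was 1.45 times the gene-poor O/E (mean log2 ratio 0.53 ± 0.038 SD, n = 8), between 1.40 and 1.51 times in single libraries and higher in 8 of 8. An exact two-sided sign-flip permutation test over libraries gave p = 0.0078125, the smallest it can give. It measures the spread between libraries, not between chromosomes, and the regions were chosen with earlier results of these data known.

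**Figure D1:**
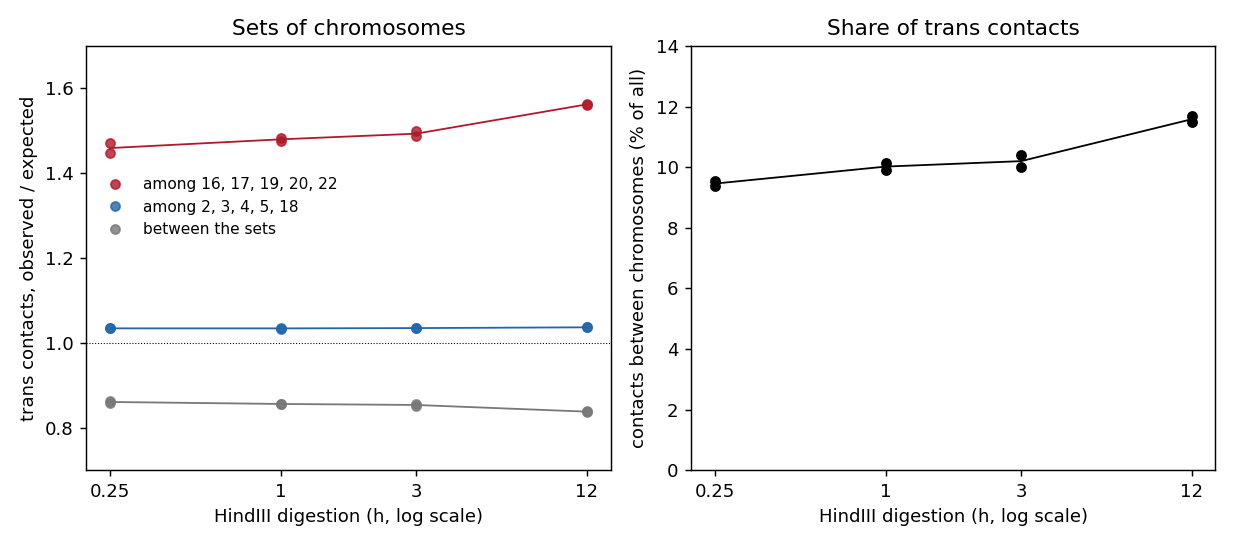
Left, observed over expected trans contacts against HindIII digestion time for pairs among the gene-rich chromosomes, among the gene-poor chromosomes and between both sets. Right, trans contacts as a percentage of all contacts. Each point is a library and lines join the means of 2 libraries. The gene-rich values lie between 1.45 and 1.56 and are highest at 12 h, the gene-poor values stay between 1.034 and 1.037, and the values between sets fall to 0.837.

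The contact excess among the gene-rich chromosomes grew with digestion time. The mean O/E was 1.46 ± 0.017 (SD, n = 2) after 0.25 h and 1.48 ± 0.0048 after 1 h. It reached 1.49 ± 0.0076 after 3 h and 1.56 ± 0.0012 after 12 h. Most of the change fell between 3 h and 12 h, where O/E grew by 4.94% in replicate 1 and 4.31% in replicate 2. Between 0.25 h and 1 h it grew by 0.827% and 2.00%, and between 1 h and 3 h by 0.309% and 1.49%. Spearman's rho with log2 hours was 0.976 over the 8 libraries (exact two-sided permutation p = 0.000794, the smallest possible; adjusted over 6 trends, p = 0.00159). Pearson's r was 0.925 (exact permutation p = 0.000794). Dropping the 0.25 h libraries gave r = 0.949, and dropping those of 12 h gave 0.874; the 2 times lie equally far from the median.

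The ratio of gene-rich to gene-poor O/E rose in the same way, with rho = 0.976 and r = 0.928 (exact permutation p = 0.000794 for both; adjusted p = 0.00159 over 6 trends). Contacts between the sets fell, with rho = -0.976 and r = -0.916 (exact permutation p = 0.000794 for both, adjusted p = 0.00159). These trends and that of the gene-rich O/E are not independent results. The ratio divides by a nearly constant value, and O/E is scaled over all trans pairs. The gene-poor O/E ran only from 1.034 to 1.037, and its rho of 0.634 did not pass (exact permutation p = 0.110; adjusted p = 0.132), while Pearson's r was 0.769 (p = 0.0349 by exact permutation). That direction depended on chromosome 3: without it, rho was -0.830 (exact permutation p = 0.0198).

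Depth and the trans share moved with time along with these values. With every library thinned to 5907580 trans contacts, rho for the gene-rich O/E was again 0.976 (exact permutation p = 0.000794). The part of the trans share was not tested. The size of the gap, though not its direction, depended on the expectation. When the expectation was iterated until every bin kept its own trans total, the gene-rich O/E ran from 1.56 to 1.67, the gene-poor O/E from 1.01 to 1.02, and their ratio from 1.54 to 1.64. With chr22:16-26 Mb kept in, the ratio ran from 1.32 to 1.42.

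Single pairs of bins were sparse. Over the 8 libraries together, a gene-rich pair of bins held a median of 7 contacts, against 5 in the gene-poor set, and 2.96% of the gene-rich pairs held none. The median O/E of a bin pair was 1.34 among the gene-rich chromosomes and 0.936 in the gene-poor set. Values above 1 were found in 63.5% of gene-rich bin pairs and 45.9% of gene-poor ones, and values above 2 in 31.3% and 8.87%. The excess was thus spread over many bin pairs of the gene-rich set, and most of them rest on few contacts.

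All 10 pairs of gene-rich chromosomes stood above 1, and all 10 were among the 20 highest of 253 pairs in pooled O/E. Chromosome 19, the most gene-dense, and chromosome 22, with the fewest valid bins, formed the highest pair of the 253 in pooled O/E. They stood at 2.41, close to the 2.395 of the highest pair outside the set. The pooled value leans on the 12 h libraries, which were the deepest, so this rank need not hold in single libraries. The O/E of pair 19-22 was 2.28 and 2.26 in the 0.25 h libraries, 2.37 and 2.33 in those of 1 h, and 2.36 and 2.37 in those of 3 h. Both 12 h libraries stood at 2.50. The lowest 12 h value thus exceeded every earlier one. Chromosomes 17 and 22 followed at 2.03 over all libraries (rank 4 of 253), then 17 and 19 at 1.80 (rank 6), 16 and 22 at 1.69 (rank 7) and 20 and 22 at 1.65 (rank 8). Chromosomes 16 and 19 stood at 1.56, and 19 and 20 at 1.53.

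The lowest of the 10 were 17 with 20 at 1.35, 16 with 17 at 1.35, and 16 with 20 at 1.34. In the order by pooled O/E, neighbouring pairs kept their order in 8 of 8 libraries, with 3 exceptions. Pair 16-22 was above 20-22 in 7 libraries, 17-20 above 16-17 in 6, and 16-17 above 16-20 in 7. The 3 lowest pairs thus did not separate beyond the spread between libraries, whereas the pairs with chromosome 22 or 19 lay above them.

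**Figure D2:**
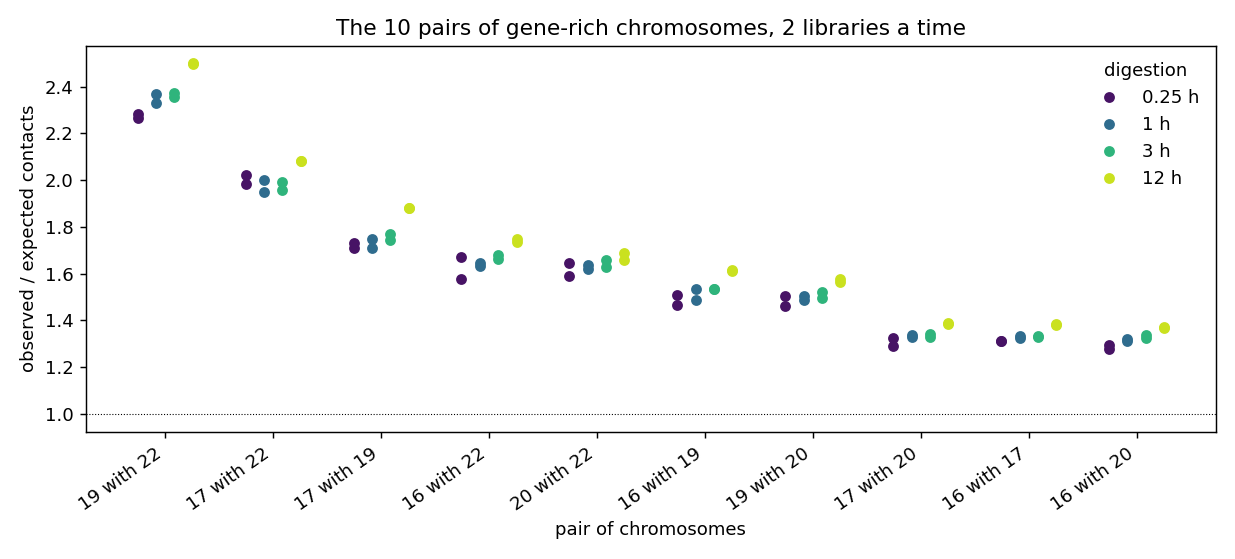
Observed over expected contacts (vertical axis) of the 10 pairs of gene-rich chromosomes, ordered by their pooled value. Each point is a library and colour gives the digestion time, with 2 libraries a time. Pair 19 with 22 is highest, at 2.26 to 2.50, and the 12 h points lie above the other 6 in 9 of the 10 pairs.

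In a limma fit of log2 O/E on log2 hours over all 253 chromosome pairs, 9 of the 10 gene-rich pairs rose past an adjusted p of 0.05, and slopes were above 0 in all 10. Of all 253 pairs, 17% rose (43 pairs) and 18.2% fell (46 pairs). The median slope of the 10 pairs was 0.015 log2 units per doubling of time, against 0.00011 over all pairs. The steepest of the 10 was 19 with 22, at 0.023 ± 0.0034 (SE; limma adjusted p = 0.00169). Pair 17-19 rose by 0.022 ± 0.0043 (SE; adjusted p = 0.00409) and pair 16-19 by 0.021 ± 0.0032 (adjusted p = 0.00194). The shallowest that passed was 20-22, at 0.0086 ± 0.0028 (adjusted p = 0.0373), and it lost the call under 12 of 21 alternatives. Pair 17-22 had a slope of 0.0093 ± 0.0047 and did not pass (adjusted p = 0.146).

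Between the ends of the time course, limma found 9 of the 10 pairs higher at 12 h than at 0.25 h, against 19.4% of all 253 pairs. The exception was 20-22, at 1.03-fold (limma adjusted p = 0.0636). The 9 differed by 1.04-fold (17-22, adjusted p = 0.0348) to 1.10-fold (19-22, adjusted p = 0.000936). Both 12 h libraries lay above the other 6 in 9 of the 10 pairs, and in 25.7% of all pairs. Calls over all 253 pairs leaned on the 12 h libraries: 89 pairs passed the trend test in either direction, and 43 without 1 or the other of them. Without 12 h replicate 1, 7 of the 10 gene-rich pairs rose past the threshold, against 19 of all 253. Without 12 h replicate 2, 8 of the 10 rose, against 16 of all. In the first run of the same libraries, which was shallower and deposited in 50 kb bins, 2 of the 10 rose past the threshold, against 7 of all 253 pairs. There, 3 of the 10 were higher at 12 h, against 9 of all pairs, and slopes were again above 0 in all 10.

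Of the 25 pairs that join a gene-rich with a gene-poor chromosome, 22 had O/E below 1, with a median of 0.798. In the same limma fit, 15 of the 25 fell with time and 1 rose. The lowest was chromosome 4 with 22 at 0.657, with a slope of -0.023 ± 0.0046 (SE; limma adjusted p = 0.00447). All 3 pairs above 1 involved chromosome 18, the smallest of the gene-poor set: 18 stood at 1.11 with 16, at 1.17 with 19 and at 1.16 with 20. Pair 16-18 was the one that rose (slope 0.0098, limma adjusted p = 0.00124). Chromosome 18, though gene-poor, thus met these 3 gene-rich chromosomes more often than the average trans pair.

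Chromosome 21, small and of middle gene density (rank 12 of 23), was in neither set. Its O/E was 1.34 with chromosome 19, 1.26 with 20, 1.23 with 16, 1.05 with 22 and 1.03 with 17. In the limma fit the pair 19-21 rose by 0.018 per doubling of time (adjusted p = 0.00194), within the range of the 10 gene-rich pairs. Chromosome 11 ranked 5 in gene density, above chromosome 20, and its pairs with the 5 chromosomes were not among the 20 highest. Chromosome 15, in neither set, ranked 8 in gene density and 8 from the fewest valid bins. Its pooled O/E was 1.37 with chromosome 22, 1.21 with 17, 1.19 with 19, 1.17 with 16 and 1.13 with 20. Pair 15-22 thus lay above the gene-rich pairs 17-20 (1.35), 16-17 (1.35) and 16-20 (1.34). Values above 1 with the 5 chromosomes were therefore not confined to the set. Across all 253 pairs, Spearman's rho between pooled O/E and the product of the 2 chromosomes' gene densities was -0.0022, and -0.118 over the 243 pairs outside the gene-rich set. Pairs share chromosomes and are not independent, so these are descriptions. Across the same 253 pairs, the slope with time followed the pooled O/E (rho = 0.785), and it did so over the 243 pairs outside the set too (rho = 0.761).

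**Figure D3:**
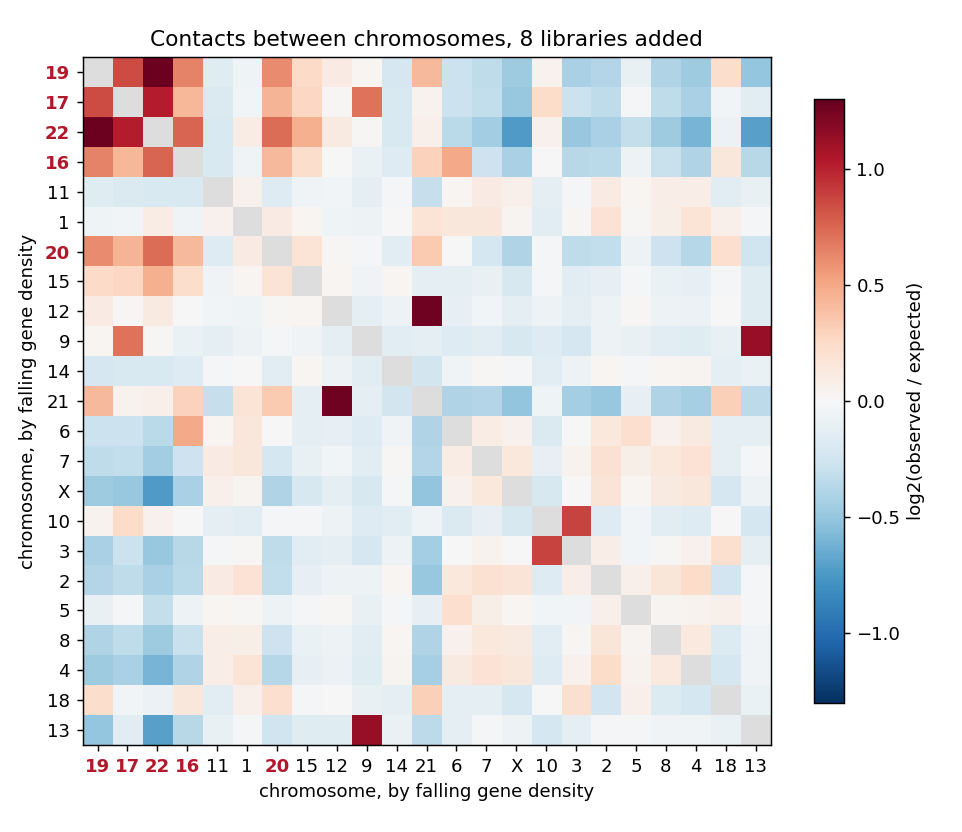
Log2 of observed over expected contacts (colour) for every pair of chromosomes, 8 libraries added together. Chromosomes are ordered by falling protein-coding gene density on both axes, with the 5 gene-rich ones in red. Red cells among 19, 17, 22, 16 and 20 are the 10 gene-rich pairs, between 1.34 and 2.41 on the linear scale.

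Other pairs of chromosomes reached similar O/E, and 10 of the 20 highest were outside the set. Pair 12-21 stood at 2.39, 9-13 at 2.20, 3-10 at 1.84, 9-17 at 1.63 and 6-16 at 1.40. Each of the 5 chromosomes had another of the 5 as its strongest partner, which was 22 for chromosomes 16, 17, 19 and 20, and 19 for chromosome 22. For chromosome 16 the order of partners was 22 (1.69), 19 (1.56), 6 (1.40), 17 (1.35) and 20 (1.34). Chromosome 6 therefore came between the gene-rich partners of chromosome 16. Likewise, chromosome 9 (1.63) came between the partners of chromosome 17, above 20 (1.35) and 16 (1.35).

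Among pairs split by class, the excess was largest between bins of class 1. Valid bins were split into 2 classes by the first eigenvector of the contacts within each chromosome, with class 1 named as the class that holds more of chromosome 19 than of chromosome 4. Class 1 held 357 of the 576 gene-rich bins, from 55.1% on chromosome 16 to 70.6% on chromosome 22, and 3127 of all 5550. Between gene-rich bins of class 1, O/E was 2.36 and 2.27 in the 0.25 h libraries, and 2.35 in both of 1 h. It was 2.38 and 2.37 in those of 3 h, and 2.53 and 2.50 in those of 12 h. Between class 1 bins of the gene-poor set, O/E was 1.13 ± 0.0066 (SD, n = 2) at 0.25 h and 1.14 ± 0.0026 at 12 h. Class 1 bins of the gene-rich chromosomes thus met each other at a level far from that of class 1 bins of the gene-poor set.

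Class 2 bins gave another picture. Between gene-rich bins of class 2, O/E was 1.43 ± 0.010 (SD, n = 2) at 0.25 h and 1.52 ± 0.0061 at 12 h. In the gene-poor set, class 2 bins stood at 1.43 ± 0.0051 and 1.56 ± 0.016, so the sets differed by less than the spread between replicates at 0.25 h, and at 12 h both gene-poor libraries (1.55 and 1.57) lay above both gene-rich ones (1.52 and 1.53). Class 2 bins of the 12 chromosomes in neither set, chromosome 9 left out, stood at 1.28 and 1.37 at these times. Between a class 1 and a class 2 bin, gene-rich O/E was 0.978 ± 0.0031 at 0.25 h and 0.985 ± 0.0018 at 12 h, while the gene-poor value was 0.820 ± 0.0080 and 0.777 ± 0.00077. The mixed pairs of the gene-rich set thus stayed near the average of all trans pairs, where those of the gene-poor set were below it and lower at 12 h. Differences between the sets within a class were not tested.

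**Figure D4:**
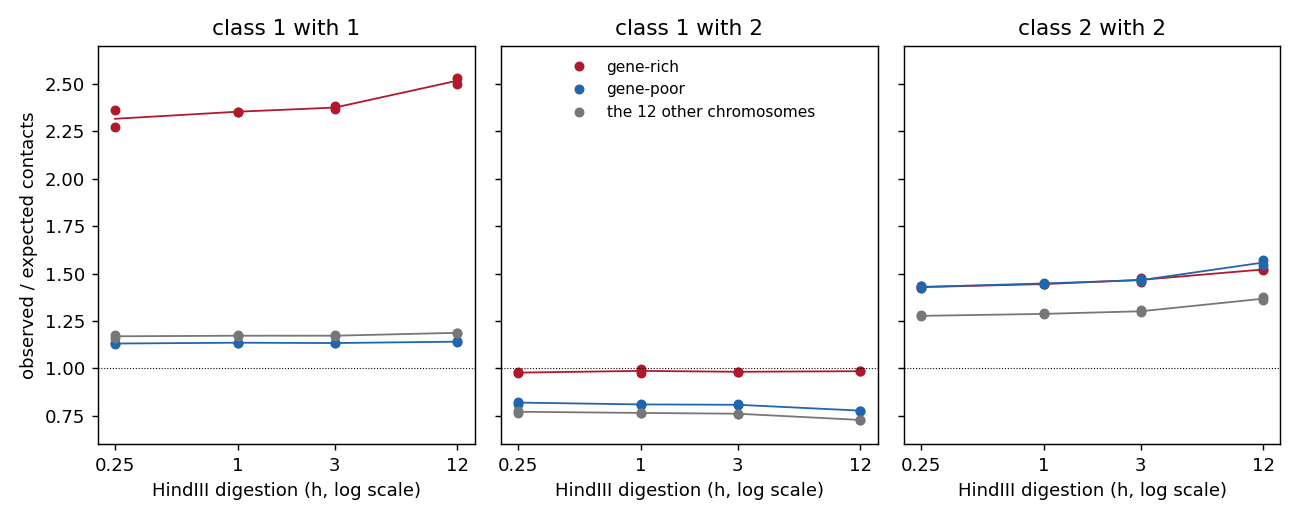
Observed over expected trans contacts against digestion time for pairs of bins in class 1, in different classes and in class 2, for the gene-rich set, the gene-poor set and the 12 other chromosomes. Each point is a library and lines join means of 2 libraries. For class 1 with class 1 the gene-rich values lie at 2.27 to 2.53, far above the other sets, and for class 2 with class 2 both named sets start at 1.43.

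With time, class 1 contacts among the gene-rich chromosomes rose, with rho = 0.878 (exact permutation p = 0.0103; adjusted p = 0.0155 over 6 trends) and r = 0.884 (exact permutation p = 0.00317). Dropping the 0.25 h libraries gave r = 0.936, and dropping those of 12 h gave 0.686. The call was lost without chromosome 19, at rho = 0.732 (exact permutation p = 0.0548). In the gene-poor set, rho was 0.586 (exact permutation p = 0.153; adjusted p = 0.153) and r was 0.713 (exact permutation p = 0.0413). Trends of class 2 and mixed pairs were not tested. In the gene-poor set, mean class 2 O/E went from 1.43 at 0.25 h to 1.56 at 12 h, and mixed pairs from 0.820 to 0.777. The nearly constant O/E of that set as a whole thus summed changes in opposite directions. Gene-rich class 2 pairs also rose, from 1.43 to 1.52. The class boundaries were revised after class results had been seen, and among 5 definitions rho for the gene-rich set ran from 0.878 to 0.976.

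Along the 5 chromosomes, most bins met the other 4 more often than the average. The bin O/E, summed over all partner bins on the other gene-rich chromosomes and over the 8 libraries, had a median of 1.67 and ran from 0.743 to 3.10, and 518 of 576 bins (89.9%) were above 1. Of the 4974 bins on other chromosomes, 28.5% were above 1 in their contacts with the 5. The median was highest on chromosome 22 (1.95) and 19 (1.87), followed by 17 (1.61), 16 (1.52) and 20 (1.38). All 106 bins of chromosome 19 and all 51 of chromosome 22 stood above 1.

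Within each chromosome, class 1 bins stood higher. Class signs were matched across chromosomes by trans contacts, so which class stood higher was partly set by the definition. The class values below are descriptions. On chromosome 16 the median was 1.87 in class 1 and 1.07 in class 2. On chromosome 20 it was 1.69 and 1.08, on 17 it was 1.82 and 1.20, on 19 it was 2.04 and 1.46, and on 22 it was 1.98 and 1.75. The gap between classes was thus narrowest on chromosome 22, whose class 2 bins all stood at 1.51 or higher. Of the 58 bins below 1, 57 were in class 2, with 30 on chromosome 16, 18 on 20 and 10 on 17. The longest unbroken run of such bins was chr16:59000001-65500000, with 13 bins, followed by chr17:49500001-53000000 with 7.

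**Figure D5:**
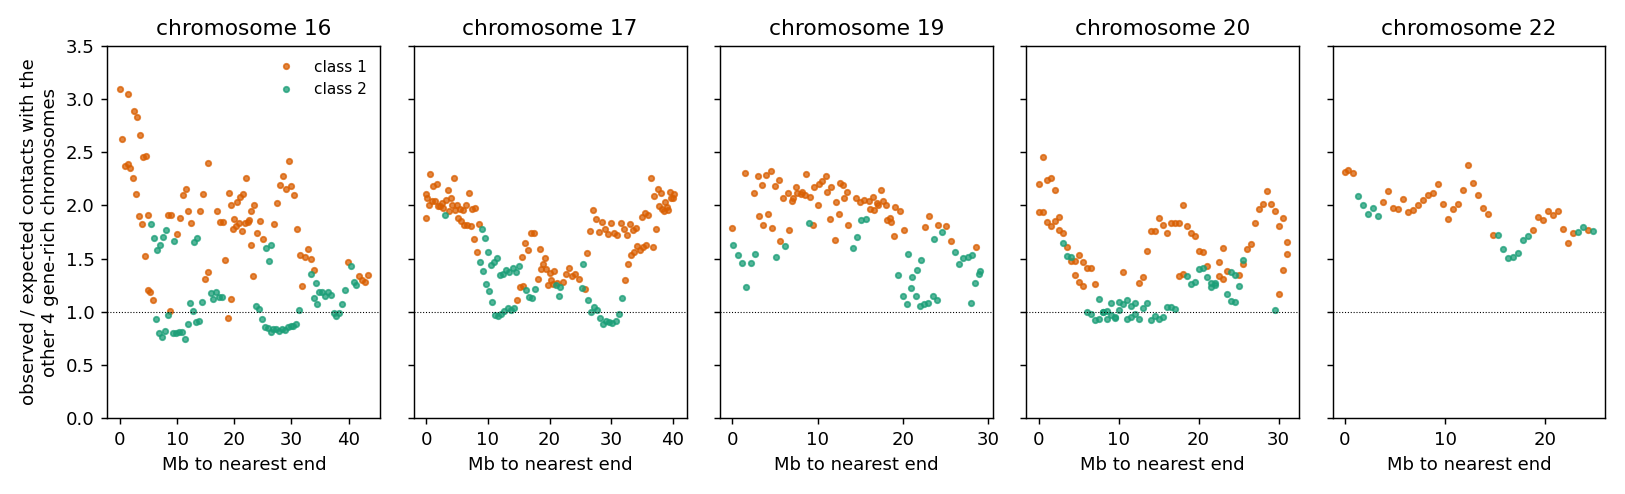
Observed over expected contacts of each valid 500 kb bin with the other 4 gene-rich chromosomes, 8 libraries added together, against its distance in Mb from the nearer chromosome end. Each point is a bin and colour gives its class. Class 1 bins have the higher median on every chromosome, the highest values (up to 3.10) are near one end of chromosome 16, and values below 1 are found on chromosomes 16, 17 and 20.

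The 5 highest bins were all within 4 Mb of the short-arm end of chromosome 16, and all in class 1. The bin chr16:1-500000 stood at 3.10, chr16:1500001-2000000 at 3.05, chr16:2500001-3000000 at 2.89, chr16:3000001-3500000 at 2.84 and chr16:3500001-4000000 at 2.67. In the first of these, O/E was 3.13 and 3.06 at 0.25 h and 3.30 and 3.09 at 12 h, from 386 and 197 contacts and from 998 and 855 contacts. The values of this bin at 0.25 h and 12 h thus overlapped. In the others of the 5, both 12 h values lay above both 0.25 h values. Only chr16:2500001-3000000 passed limma between these times (2.58 and 2.51 against 3.08 and 3.11, 1.22-fold, limma adjusted p = 0.0334). Its trend did not pass (limma adjusted p = 0.0602). The 5 lowest lay on the long arm of the same chromosome, in class 2, between chr16:78500001-79000000 at 0.743 and chr16:83000001-83500000 at 0.803. Chromosome 16 therefore held both extremes of the set.

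Among the gene-rich bins, those near chromosome ends met each other more than bins elsewhere did. Values by position were taken for the gene-rich set only and were not split by class, so position and class were not separated. For pairs of gene-rich bins that both lay within 5 Mb of an end, O/E was 2.87 to 3.41 in the 8 libraries, with a median of 3.05. Ends also stood high with bins near neither an end nor the centromere gap (the widest stretch with no mapped bins). Those pairs had a median of 1.79, from 1.73 to 1.91. Pairs with both bins within 5 Mb of the gap had a median of 1.75, and pairs of an end and a gap 1.40. Pairs of a gap and a bin elsewhere had 1.34, and pairs with neither 1.42. Pairs away from ends and gaps rose from 1.40 and 1.39 at 0.25 h to 1.47 and 1.48 at 12 h. With all bins near ends and gaps left out, the gene-rich O/E was 1.46 to 1.57 and kept rho = 0.976 (exact permutation p = 0.000794).

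At the level of single bins, few changes with time passed the test. In a limma fit over 5549 bins, the contacts of a bin with the gene-rich chromosomes other than its own rose in 10 of the 575 gene-rich bins tested and fell in 1, against 0.27% rising and 0.396% falling of all bins tested. The bin not tested was the short last bin of chromosome 19, which starts at 59000001 and had under 20 expected contacts in a library. Slopes were above 0 in 465 of the 575, with a median of 0.015 log2 units per doubling of time, against -0.0068 over all bins. Of the 10 that rose, 6 were on chromosome 19 and 4 on chromosome 17, and all were in class 1. These counts were unstable. Against 37 calls over all bins, leaving out 0.25 h replicate 1 gave 98, 0.25 h replicate 2 gave 19, 3 h replicate 1 gave 23, 12 h replicate 1 gave 7 and 12 h replicate 2 gave 5. Thinned to equal numbers of trans contacts, limma called 0 of the gene-rich bins, and 112 of the 575 had an unadjusted p under 0.05. Over all 5549 bins it then called 0 rising and 6 falling, with 740 at an unadjusted p under 0.05. The split of calls also moved: all bins gave 15 rising and 22 falling, but 3 and 37 without the variance trend, with 3 gene-rich bins rising, and 0 and 4 with the deposited balanced signal, with 0 gene-rich bins called. Between 0.25 h and 12 h, 16 of the 575 bins were higher at 12 h, against 0.396% of all bins tested. In the other direction limma called 0 of the 575 (4 at an unadjusted p under 0.05), against 0.505% of all. Leaving out each library gave 0 to 76 gene-rich bins higher at 12 h. Without 12 h replicate 1 it was 0, against 0 of all 5549 bins, and without 0.25 h replicate 1 it was 76, against 121 of all.

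The largest rise was in chr17:4500001-5000000, a class 1 bin 4.5 Mb from the short-arm end. Its O/E was 1.92 and 1.73 in the 0.25 h libraries. The mean was 2.16 ± 0.073 (SD, n = 2) after 1 h and 2.15 ± 0.043 after 3 h, and the 12 h libraries stood at 2.53 and 2.40. The slope was 0.072 ± 0.011 log2 units per doubling (SE; limma adjusted p = 0.00407). The 12 h libraries stood above all others, and the 0.25 h libraries below all others. Next came chr19:51000001-51500000, from 1.72 and 1.86 at 0.25 h to 2.26 and 2.33 at 12 h (slope 0.065 ± 0.010; limma adjusted p = 0.00407). The bin chr17:76000001-76500000 stood at 1.68 and 1.64 at 0.25 h and was 1.27-fold higher at 12 h (slope 0.059 ± 0.010; limma adjusted p = 0.00695). The bins chr19:45500001-46000000 and chr19:12000001-12500000 completed the 5 largest, with slopes of 0.058 and 0.051 and limma adjusted p of 0.0359 and 0.0255. They lost the call under 10 of 19 and 8 of 21 alternatives, and the 3 larger rises under 3 or 4. The losses of these 3 included thinning and the balanced signal. Settings in which a bin was not tested are not counted. None of the 5 was tested in the first run, where limma called 0 of 244 gene-rich bins rising, and 0 of all 4322 bins.

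The single bin that fell was chr20:17000001-17500000, in class 2. Its O/E was 1.20 and 1.12 in the 0.25 h libraries, 1.04 and 1.11 in those of 1 h, and 0.988 and 1.05 in those of 3 h. The 12 h libraries gave 0.946 and 0.988. The slope was -0.046 ± 0.010 (SE; limma adjusted p = 0.0470), and it was past the threshold under 9 of 21 alternatives. It lay above the average of trans pairs at the shortest digestion and below it at the longest.

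A few pairs of bins stood far apart from the rest. Among bin pairs of the set with at least 50 contacts, 45 had O/E above 5, of which 20 joined chromosomes 16 and 20. They held 4490 of 1118767 contacts, and without focal pairs of this kind in any chromosome the ratio of gene-rich to gene-poor O/E was 1.43 to 1.53. The highest over the 8 libraries together joined chr20:52000001-52500000 with chr22:38500001-39000000, at an O/E of 106 from 583 contacts. Its contacts were 91 and 85 in the 0.25 h libraries, 69 and 51 in those of 1 h, 85 and 78 in those of 3 h, and 58 and 66 in those of 12 h. Its O/E went from 168 and 257 at 0.25 h to 51.5 and 59.1 at 12 h. This pair moved against the set, with its lowest values at the longest digestion.

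The next 3 pairs joined bins that lay within 1.5 Mb of a centromere gap. The bin chr16:33500001-34000000 met chr20:29500001-30000000 at an O/E of 53.4 from 901 contacts, between 43.0 and 60.5 in the 8 libraries. The bin chr20:25500001-26000000 met chr17:21500001-22000000 at 59.3 (267 contacts) and its neighbour chr17:21000001-21500000 at 35.3 (119 contacts). At 12 h its O/E with chr17:21500001-22000000 was 64.0 and 61.3, above the 51.5 and 59.1 of the pair that was highest over all libraries. The fifth pair, chr19:38500001-39000000 with chr20:18000001-18500000, stood at 20.5 from 67 contacts. Its O/E was 38.5 and 80.4 at 0.25 h, from 12 and 14 contacts, and 8.63 and 12.0 at 12 h, from 6 and 8 contacts. Breakpoints and repeated sequences were not mapped here. These bin pairs were chosen for their size, so their values are descriptions.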

How the data were processed

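In-nucleus Hi-C of K562 cells was measured in 8 libraries (4 digestion times, 2 replicates), each sequenced in 2 runs, giving 16 files. The deposited values are a balanced contact signal per pair of bins, 20 kb wide in the second run and 50 kb in the first. In them the authors scaled bins to equal totals, as the file values show. The submitters' processing notes name HiC-Pro 2.11.1, Bowtie2 2.3.4.1 and hg19 without roles. Pairs of bins are listed by number only; numbers were read as running through hg19 chromosomes 1-22, X, Y and M, which fit the highest bin number of each file.

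The bin factors were solved from the signal, which gave whole contacts (100% of listed pairs within 0.01 of a whole number in all 16 files), and contacts of the second run were summed to 500 kb. Bins with under 60% of sub-bins present were left out, as was chr22:16-26 Mb (15 otherwise valid bins). Trends were tested with exact two-sided permutations of the times over libraries (2520 arrangements), adjusted by Benjamini-Hochberg over 6 trends. limma 3.58.1 (R 4.3.3; lmFit, eBayes with trend) was fitted over 253 chromosome pairs and over 5549 bins with at least 20 expected contacts in every library and a pseudocount of 0.5 on contacts and expectation, with Benjamini-Hochberg adjustment over all features at 0.05. Other steps used Python 3.11.15 with numpy 2.4.6. The steps were checked on simulated data. Named regions were all 10 chromosome pairs, the 5 highest and 5 lowest bins, the 5 largest rises and falls past the threshold in which both replicates moved alike from 0.25 h to 12 h (1 fall qualified), and the 5 bin pairs with the highest O/E among those with at least 50 contacts.

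Classes were the sign of the first eigenvector of contacts within a chromosome, balanced, divided by the mean at each distance within and between arms, and limited to a factor of 3 from it. Signs were matched across chromosomes by trans contacts. Their definition was changed after class results were seen, by agreement with trans contacts, so class values are not independent of it; chromosome 9 agreed poorly (r = 0.284, against 0.875 to 0.971 elsewhere) and was left out of the other chromosomes. The regions and lists were chosen with earlier results of these data known. Same-numbered replicates did not deviate together (r of their deviations from the time means between -0.234 and 0.0157), so the main tests did not use numbers as pairs. Percent changes between times and the choice of named rises and falls did compare same-numbered libraries, which is a description. Counting error alone is covered by contact numbers. Alternatives covered the run, bin width, expectation, filters, thinning, focal pairs, chromosome ends and each library and chromosome left out.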

Additional observations from a re-analysis of the deposited data

How the results depend on the processing

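The gene-rich O/E trend, the ratio trend and the trend of contacts between the sets kept their direction and their side of the threshold under every alternative run (25, 30 and 30 alternatives). These trends are not independent of each other. Without each library in turn, their rho was 0.973, 0.973 and -0.973. In the first run of the same libraries, rho for the gene-rich O/E was 0.927 (exact permutation p = 0.00317). The gene-poor trend was the least settled: its rho was 0.830 (exact permutation p = 0.0198) with the iterated expectation, 0.927 (p = 0.00317) with the deposited balanced signal, and -0.830 without chromosome 3, and leaving out each library gave 0.459 to 0.826. For class 1 of the gene-poor set, rho was 0.976 with the balanced signal, 0.781 without chromosome 18, 0.0488 without chromosome 3, 0.293 without chromosome 2, and 0.386 to 0.753 without each library. For class 1 of the gene-rich set, it was 0.732 without chromosome 19 and 0.826 to 0.973 without each library. The cause of these changes was not tested.

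Replicate numbers did not pair the libraries. With the replicate number as a block, rho for the gene-rich trend was again 0.976 (exact permutation p = 0.00347, the smallest possible). For the difference between the sets, block means over 4 times gave a mean log2 ratio of 0.53 (exact sign-flip permutation p = 0.125, the smallest that 4 values allow), and leaving out each library gave 0.525 to 0.54. The block gave 85 calls among chromosome pairs and 39 among bins for the trend.

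Counts of calls moved with several settings, and the cause was not tested. For the trend over chromosome pairs (89 calls) the first run gave 12 and thinning gave 54, and leaving out each library gave 43 to 89. For 0.25 h against 12 h (101 calls) these were 15, 66 and 52 to 94. For the trend over bins (37 calls) the counts were 221 with 1 Mb bins, 74 with chr22:16-26 Mb kept in, 4 with the balanced signal, 4 in the first run, 88 with a pseudocount of 5, 6 after thinning, 13 with valid bins at 80%, 74 with any present bin, 5 without ends and centromeres, 6 without focal bin pairs, and 5 to 98 without each library. For bins at 0.25 h against 12 h (50 calls) they were 294 with 1 Mb bins, 93 with chr22:16-26 Mb kept in, 5 with the balanced signal, 5 in the first run, 91 with a pseudocount of 5, 11 after thinning, 9 with valid bins at 80%, 80 with any present bin, 0 without ends and centromeres, 11 without focal bin pairs, 15 with both runs added, 19 with the iterated expectation, and 4 to 296 without each library. Without ends and centromeres, limma gave 792 bins an unadjusted p under 0.05 in this comparison. Calls for single bins were thus unstable across settings.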
